A study of Mus musculus with 14 samples.

Results

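Nonfibrillar collagens were followed as 9 genes, Col6a1, Col6a2, Col6a3, Col8a1, Col8a2, Col12a1, Col15a1, Col16a1 and Col18a1, in bulk RNA-seq of mouse ascending aorta. They were chosen by name from the 32289 genes of the deposited gene table, and each symbol matched 1 gene. The choice was made with earlier results of these data known. Counts of the 9 beside shares of all genes are therefore descriptions and not independent support. The study asked about integrin αV in aortic aneurysm and dissection. All 14 libraries are described as made from ascending aortic tissue of C57BL/6 mice killed in week 6. The control group, PBS, has 3 libraries. The BAPN group has 4 libraries from mice given BAPN (beta-aminopropionitrile), which blocks the lysyl oxidase enzymes that crosslink elastin and fibrillar collagen. The BAPN+Cilengitide group (3 libraries) and the BAPN+SB273005 group (4 libraries) received BAPN together with an integrin αV inhibitor. No group received an inhibitor without BAPN, so the inhibitor and BAPN cannot be told apart where an inhibitor group is compared with PBS. Doses, sex and age are not stated, and the labels do not say that the libraries of a group came from separate animals. The p-values therefore measure the spread between these libraries, which may be partly technical.

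Collagens that do not form the striated fibrils of the tissue instead form networks or beaded filaments, coat fibrils or anchor basement membranes. Collagen VIII forms networks of short chains and is known from rodent arteries, where smooth muscle cells make it after injury. Collagens XII and XVI sit on the surface of fibrils and microfibrils, collagen VI forms beaded filaments beside cells, and collagens XV and XVIII are proteoglycans of basement membrane zones whose carboxyl ends can be released as the fragments restin and endostatin.

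On mm10 the genes of collagen VIII lie at chr16:57624258-57754737 (Col8a1, ENSMUSG00000068196, minus strand) and chr4:126286793-126314330 (Col8a2, ENSMUSG00000056174, plus strand). Col12a1 (ENSMUSG00000032332) lies at chr9:79598991-79718720 on the minus strand and Col16a1 (ENSMUSG00000040690) at chr4:130047840-130099283 on the plus strand. Collagen VI genes lie at chr10:76708792-76726168 (Col6a1, ENSMUSG00000001119), chr10:76595762-76623630 (Col6a2, ENSMUSG00000020241) and chr1:90765923-90843971 (Col6a3, ENSMUSG00000048126), all on the minus strand. Col15a1 (ENSMUSG00000028339) lies at chr4:47208161-47313167 on the plus strand and Col18a1 (ENSMUSG00000001435) at chr10:77052178-77166548 on the minus strand.

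Promoter windows are shown for the 3 genes with higher levels in both inhibitor groups than in PBS, and for both annotated starts of Col18a1, the most abundant of the 9, because its transcripts separate by start. Each window holds 250 bases before and 50 after a start site in RefSeq on GRCm38.p6. It is printed 5′ to 3′ on the strand of the gene, in lower case. Capitals mark matches on either strand to any of 4 motifs. The GC box, bound by Sp1, was searched as GGGCGG. The AP-1 motif was searched as TGANTCA, with N for any base. The TEAD motif was searched as CATTCC. The core promoter motif searched last was TATAAA. Overlapping matches were allowed and then run together in capitals. The windows are Col8a1 at chr16:57754688-57754987 (minus strand), Col8a2 at chr4:126286544-126286843 (plus strand), Col16a1 at chr4:130047590-130047889 (plus strand), and Col18a1 at chr10:77166481-77166780 (distal start) and chr10:77113656-77113955 (proximal start), both on the minus strand.
Col8a1: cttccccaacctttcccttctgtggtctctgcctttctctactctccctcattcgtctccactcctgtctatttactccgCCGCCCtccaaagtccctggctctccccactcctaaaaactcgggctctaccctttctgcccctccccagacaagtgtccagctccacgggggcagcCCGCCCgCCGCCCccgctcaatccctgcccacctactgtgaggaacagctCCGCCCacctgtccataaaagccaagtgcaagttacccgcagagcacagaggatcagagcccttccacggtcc
Col8a2: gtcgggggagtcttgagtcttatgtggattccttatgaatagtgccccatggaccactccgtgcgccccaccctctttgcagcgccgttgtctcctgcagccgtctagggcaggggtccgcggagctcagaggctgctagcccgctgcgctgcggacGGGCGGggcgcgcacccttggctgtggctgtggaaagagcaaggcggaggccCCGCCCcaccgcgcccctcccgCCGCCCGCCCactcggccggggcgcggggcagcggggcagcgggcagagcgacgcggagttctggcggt
Col16a1: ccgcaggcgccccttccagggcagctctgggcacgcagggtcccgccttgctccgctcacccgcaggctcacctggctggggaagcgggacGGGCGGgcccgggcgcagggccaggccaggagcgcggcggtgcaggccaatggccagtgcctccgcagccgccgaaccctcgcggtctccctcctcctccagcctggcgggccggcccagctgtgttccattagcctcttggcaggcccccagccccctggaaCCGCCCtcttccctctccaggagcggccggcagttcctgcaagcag
Col18a1 distal: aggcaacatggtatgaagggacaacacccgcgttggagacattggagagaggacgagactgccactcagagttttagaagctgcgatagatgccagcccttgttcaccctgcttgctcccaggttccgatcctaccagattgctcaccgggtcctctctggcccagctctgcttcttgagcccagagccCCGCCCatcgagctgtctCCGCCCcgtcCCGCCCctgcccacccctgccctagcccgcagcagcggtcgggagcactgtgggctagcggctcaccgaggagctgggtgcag
Col18a1 proximal: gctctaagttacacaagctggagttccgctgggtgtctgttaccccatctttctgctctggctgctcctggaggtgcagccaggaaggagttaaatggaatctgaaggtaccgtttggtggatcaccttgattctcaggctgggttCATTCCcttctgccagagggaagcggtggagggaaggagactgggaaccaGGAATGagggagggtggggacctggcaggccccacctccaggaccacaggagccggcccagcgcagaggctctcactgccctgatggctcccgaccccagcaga

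The GC box had 4 matches in the Col8a1 window, 4 in that of Col8a2, 2 in that of Col16a1 and 3 at the distal start of Col18a1. Of all 32851 promoter windows of this length, 35.7% hold at least 1 GC box. The proximal start of Col18a1 held no GC box and 2 TEAD matches, a motif found in 14.7% of windows. None of the 10 windows of the 8 genes matched in RefSeq held TATAAA, which 13.6% of all windows hold. AP-1 had 1 match, in Col6a1, against 7.81% of windows, and the windows of Col6a3 and Col15a1 held none of the 4 motifs. Col6a2, which passed the test in no comparison, held 3 GC boxes and 1 TEAD match in 1 window (64.3% G and C). Its other window held 1 GC box. Base composition of the windows shown was 60.3% G and C for Col8a1, 71.7% for Col8a2, 74.3% for Col16a1, 63.3% and 59.7% for the distal and proximal windows of Col18a1, beside a median of 52.7% over all windows. A match describes letters in these windows and not binding.

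Total estimated counts ran from 49027885 to 72584877 per library, and the 9 genes took 0.350% to 0.692% of each library's counts. All 9 passed the filter of an FPKM (fragment count scaled by gene length and library depth) of 1 or more in at least 3 libraries, with 13294 genes tested. Col8a2 (0.633 FPKM in PBS replicate 1) and Col12a1 (0.993 in PBS replicate 2) did not reach 1 FPKM in every PBS library. They needed BAPN-fed libraries, where they were higher, to pass, so the filter favoured their place among the genes tested. Smooth muscle markers were high in 13 libraries: Acta2, smooth muscle actin, was at 2724 to 6417 FPKM. In BAPN+SB273005 replicate 2, Acta2 was at 548 FPKM and mitochondrially encoded genes took 17.9% of counts, against 4.10% to 10.2% elsewhere, so this library stands apart. The libraries also fall into sets that the labels do not name. The 3 PBS libraries and BAPN+SB273005 replicates 1 to 3 had 0 counts of H2-Ea, an MHC class II gene, and 7.73 to 11.6 FPKM of Umod, a kidney gene. The other 8 libraries had 83 to 130 counts of H2-Ea and 19.8 to 25.8 FPKM of Umod. These include every BAPN and BAPN+Cilengitide library and no PBS library. The stated strain is the same for all libraries, and whether both sets match that strain was not tested. Library set and group cannot be told apart in BAPN vs. PBS and in BAPN+Cilengitide vs. PBS, while BAPN+SB273005 vs. PBS can be compared inside 1 set.

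Of the 9 genes, 4 were higher than PBS in at least 1 inhibitor group. Over all genes tested, 3.98% were higher with BAPN+Cilengitide and 7.82% with BAPN+SB273005. The share of all genes higher in at least 1 of these groups was not counted. Col8a1, Col8a2 and Col16a1 were higher in both inhibitor groups than in PBS, Col12a1 was also higher with BAPN+SB273005 than in PBS, and Col6a1, Col6a2, Col6a3, Col15a1 and Col18a1 passed the test in no comparison (edgeR quasi-likelihood test, adjusted p under 0.05 over all genes tested). The plot of levels by library shows every value.

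**Figure D1:**
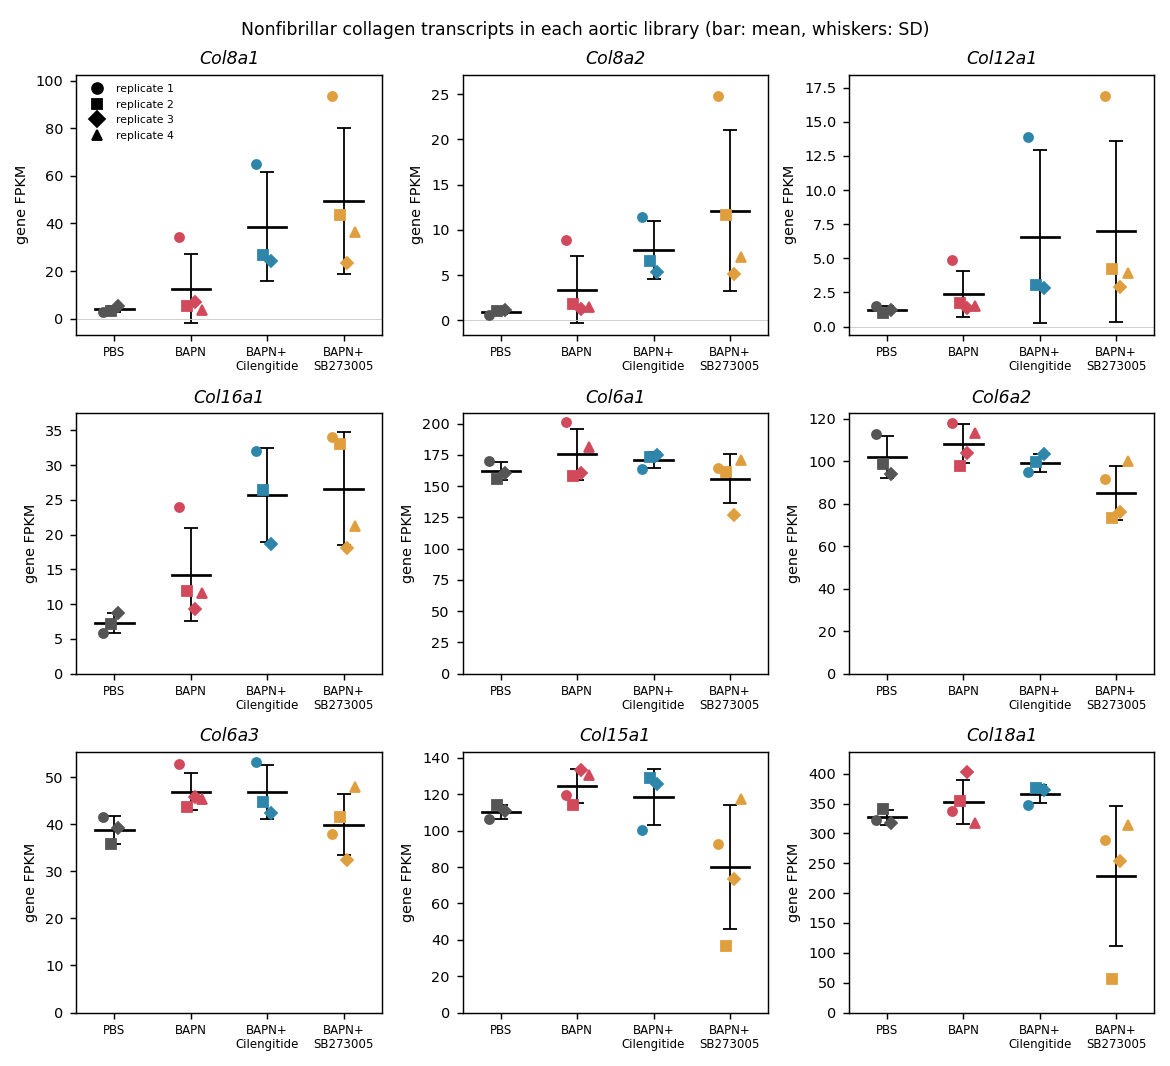
Gene FPKM of each of the 9 collagens (y axis, linear) in each library of the 4 groups (x axis), with 1 symbol shape per replicate number, a bar at the group mean and whiskers of 1 SD, which reach below 0 for Col8a1 and Col8a2 in the BAPN group. For Col8a1, Col8a2, Col12a1 and Col16a1 every inhibitor library lies above every PBS library, and replicate 1 is the highest library of each BAPN-fed group.

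Col8a1 encodes the alpha1 chain of collagen VIII. Its level was 2.93, 3.41 and 5.36 FPKM in PBS replicates 1 to 3 and 34.2, 5.31, 6.86 and 3.64 FPKM in BAPN replicates 1 to 4. It was 65.0, 26.6 and 24.4 FPKM in BAPN+Cilengitide replicates 1 to 3, and 93.6, 43.6, 23.5 and 36.6 FPKM in BAPN+SB273005 replicates 1 to 4. All 7 inhibitor libraries lay above all PBS libraries, whereas in the BAPN group replicate 1 alone was high and replicates 2 and 4 fell inside the PBS range. Group means were 3.90 ± 1.28 (SD, n = 3) FPKM for PBS, 12.5 ± 14.5 (n = 4) for BAPN, 38.7 ± 22.8 (n = 3) for BAPN+Cilengitide and 49.3 ± 30.7 (n = 4) for BAPN+SB273005. The log2 difference from PBS was 3.34 ± 0.82 (SE; 10.1-fold, 95% interval 2.97 to 34.5) with BAPN+Cilengitide, edgeR adjusted p = 0.0342. With BAPN+SB273005 it was 3.71 ± 0.81 (13.1-fold, 3.87 to 44.4), edgeR adjusted p = 0.0131. BAPN by itself differed from PBS by 1.66 ± 0.74, edgeR adjusted p = 0.389, and by 0.45 ± 0.50 without BAPN replicate 1, edgeR adjusted p = 0.909, with 0.276 to 0.909 over all alternatives.

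Col8a2, the alpha2 chain of collagen VIII, followed the same order at a lower level. Its FPKM was 0.633, 1.04 and 1.15 in PBS, 8.94, 1.78, 1.28 and 1.51 in BAPN, 11.4, 6.53 and 5.37 in BAPN+Cilengitide, and 24.8, 11.6, 5.10 and 6.99 in BAPN+SB273005, by replicate number. Here all 4 BAPN libraries also lay above the PBS range, 3 of them by less than 1 FPKM. Means were 0.939 ± 0.270 (SD, n = 3), 3.38 ± 3.71 (n = 4), 7.76 ± 3.19 (n = 3) and 12.1 ± 8.89 (n = 4) FPKM in that order. The log2 difference from PBS was 3.07 ± 0.78 (8.39-fold, 2.59 to 27.2) with BAPN+Cilengitide, edgeR adjusted p = 0.0399, and 3.73 ± 0.79 (13.3-fold, 4.09 to 43.3) with BAPN+SB273005, edgeR adjusted p = 0.0109. For BAPN vs. PBS it was 1.82 ± 0.72, edgeR adjusted p = 0.318, and 0.69 ± 0.51 without BAPN replicate 1.

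Between the chains of collagen VIII the ratio of levels was steadier than either level. On the scale of summed transcript FPKM, which divides by the length of each transcript, Col8a1 stood at 6.22 times Col8a2 on average (range 3.56 to 8.41 over 14 libraries). The group means of this ratio were 6.21 ± 1.18 (SD, n = 3) in PBS, 5.40 ± 1.90 (n = 4) in BAPN, 7.06 ± 1.22 (n = 3) in BAPN+Cilengitide and 6.42 ± 1.07 (n = 4) in BAPN+SB273005. The ranges of the 4 groups overlapped, while each chain alone varied over 31.9-fold (Col8a1) and 39.2-fold (Col8a2) across libraries.

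Col16a1 and Col12a1 encode fibril-associated collagens. Col16a1 was at 5.89, 7.11 and 8.74 FPKM in PBS, at 24.0, 12.0, 9.33 and 11.7 in BAPN, at 32.1, 26.4 and 18.7 in BAPN+Cilengitide, and at 34.1, 33.0, 18.1 and 21.2 in BAPN+SB273005. Every library of the 3 BAPN-fed groups lay above the PBS range, and every inhibitor library lay above BAPN replicates 2 to 4. The means were 7.25 ± 1.43 (SD, n = 3), 14.3 ± 6.63 (n = 4), 25.7 ± 6.73 (n = 3) and 26.6 ± 8.12 (n = 4) FPKM. Col16a1 differed from PBS by 1.86 ± 0.36 log2 (3.63-fold, 2.11 to 6.25) with BAPN+Cilengitide, edgeR adjusted p = 0.0142, and by 1.93 ± 0.35 (3.82-fold, 2.26 to 6.44) with BAPN+SB273005, edgeR adjusted p = 0.00583. The difference of BAPN from PBS, 0.97 ± 0.34 (1.95-fold, 1.18 to 3.23), did not pass (edgeR adjusted p = 0.24).

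Col12a1, whose product coats collagen I fibrils, was low in PBS at 1.51, 0.993 and 1.21 FPKM, and stood at 4.91, 1.73, 1.37 and 1.53 FPKM in BAPN. With BAPN+Cilengitide it was at 13.9, 3.02 and 2.80 FPKM, and with BAPN+SB273005 at 16.9, 4.19, 2.92 and 3.90 FPKM. In each inhibitor group replicate 1 was far above all other libraries of its group (13.9 against at most 3.02 FPKM, and 16.9 against at most 4.19). All 7 libraries exceeded PBS. Group means were 1.24 ± 0.259 (SD, n = 3), 2.39 ± 1.69 (n = 4), 6.57 ± 6.34 (n = 3) and 6.98 ± 6.63 (n = 4) FPKM. The log2 difference from PBS was 2.45 ± 0.78 with BAPN+Cilengitide, which did not pass (edgeR adjusted p = 0.0856), and 2.56 ± 0.76 (5.89-fold, 1.90 to 18.3) with BAPN+SB273005, edgeR adjusted p = 0.0424. Without BAPN+SB273005 replicate 1 the latter difference was 1.65 and did not pass; over its alternatives the edgeR, limma and DESeq2 adjusted p ran from 0.00472 to 0.140. For BAPN vs. PBS the log2 difference was 0.95 ± 0.71 (edgeR adjusted p = 0.688).

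The same 8 libraries, the 7 with an inhibitor and BAPN replicate 1, were the 8 highest of the 14 for each of Col8a1, Col8a2, Col12a1 and Col16a1. The lowest of these 8 was at 23.5 FPKM of Col8a1, against 6.86 in the highest of the other 6. For Col8a2 these values were 5.10 and 1.78 FPKM, for Col12a1 2.80 and 1.73, and for Col16a1 18.1 and 12.0. For the other 5 genes, 4 to 6 of these 8 libraries were among the 8 highest. With the group means removed, the log2(FPKM + 1) levels of Col8a1 and Col8a2 still moved together (Pearson r = 0.94, 14 libraries), as did Col8a2 with Col16a1 (0.93) and Col8a2 with Col12a1 (0.86). The 8 libraries were picked out from the levels of these same genes. How many of all genes split the libraries this way was not counted. These are descriptions across libraries that share depth and tissue makeup.

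**Figure D2:**
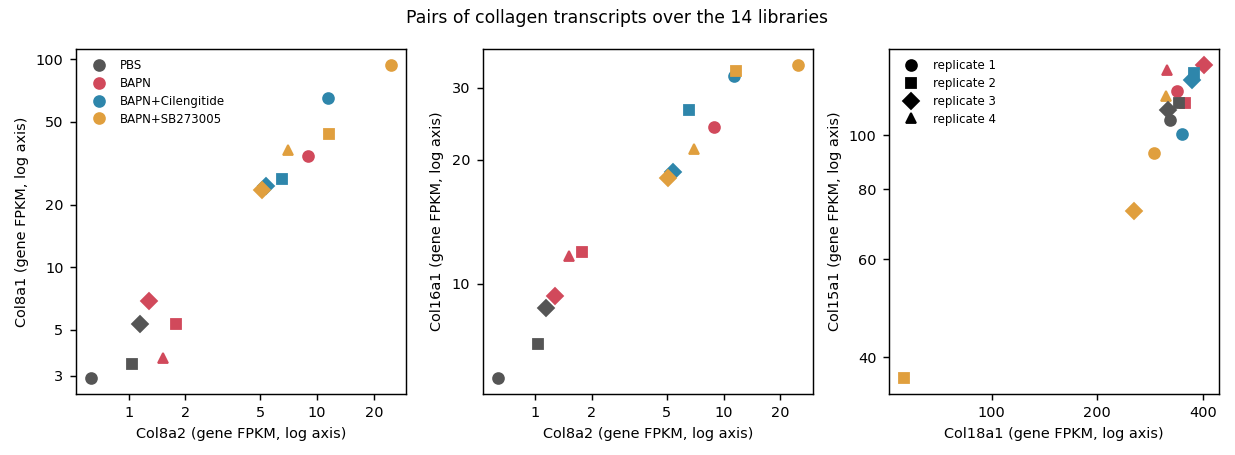
Gene FPKM of pairs of collagens on log axes, 1 point per library, coloured by group and shaped by replicate number (Col8a1 and Col16a1 against Col8a2, Col15a1 against Col18a1). In the left and middle panels the 7 inhibitor libraries and BAPN replicate 1 form the upper run of points. In the right panel BAPN+SB273005 replicate 2 lies apart at 56.4 FPKM of Col18a1.

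Collagen VI is a beaded filament assembled from 3 chains, and its genes hardly moved. Col6a1 was at 170.4, 156 and 160.3 FPKM in PBS, 201, 158, 161 and 182 in BAPN, 164, 173 and 175 in BAPN+Cilengitide, and 165, 161, 127 and 171 in BAPN+SB273005, with overlap between all groups. Col6a2 ranged from 94.0 to 113 FPKM in PBS and from 73.3 to 118 FPKM over the BAPN-fed groups. Col6a3, the longest chain, was at 41.5, 35.7 and 39.2 FPKM in PBS and at 52.7, 43.8, 45.9 and 45.4 in BAPN, with 53.3, 44.7 and 42.4 in BAPN+Cilengitide and 37.9, 41.5, 32.4 and 47.9 in BAPN+SB273005. The Col6a3 libraries of BAPN and BAPN+Cilengitide all lay above PBS, with log2 differences of 0.28 ± 0.15 and 0.32 ± 0.16 that did not pass (edgeR adjusted p = 0.508 and 0.283). The 95% intervals of the difference from PBS ran from -0.18 to 0.41 (BAPN), -0.20 to 0.43 (BAPN+Cilengitide) and -0.29 to 0.30 (BAPN+SB273005) for Col6a1. For Col6a2 with BAPN+SB273005 the difference was -0.20 ± 0.13 (interval -0.49 to 0.09). Each collagen VI gene varied 1.58-fold to 1.64-fold between its lowest and highest library.

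Per transcript length, the chains of collagen VI were not at equal levels. In summed transcript FPKM, Col6a1 was at 3.10 times Col6a3 (range 2.45 to 3.48 over 14 libraries) and Col6a2 at 3.53 times Col6a3 (2.69 to 4.24). Col6a2 was at 1.14 times Col6a1 (0.871 to 1.28). The gene FPKM give the opposite order of these chains, with means of 166 for Col6a1 and 98.4 for Col6a2, because gene FPKM divide by the union of all annotated exons. That length is 8326 bases for Col6a2, whose leading transcript has 3949, and 4380 bases for Col6a1, whose leading transcript has 4100. Across the 9 genes the sum of transcript FPKM was 1.04 (Col8a2) to 2.05 (Col6a2) times the gene FPKM. Col6a1 and Col6a2 lie 85162 bases apart on chromosome 10, both on the minus strand, between Ftcd, which was too low to be tested, and Pcbp3.

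**Figure D3:**
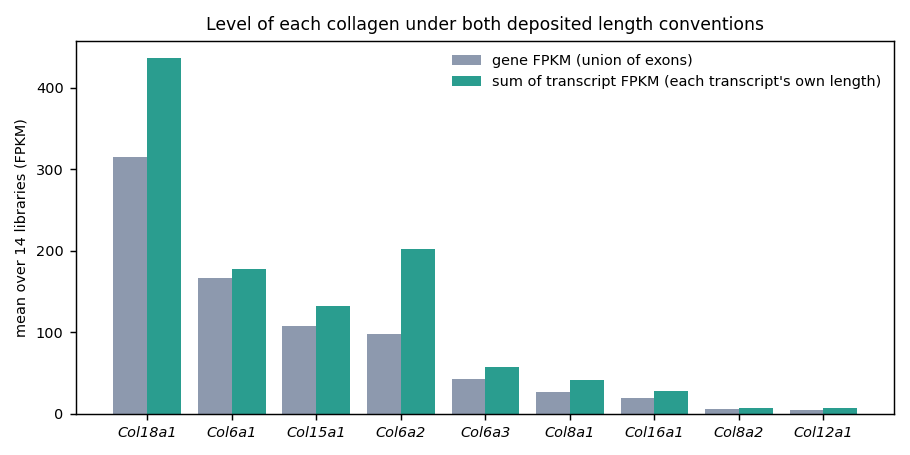
Mean over 14 libraries (y axis, FPKM, linear from 0) of each collagen as gene FPKM and as the sum of its transcripts' FPKM. Col18a1 is the highest on both scales, and Col6a2 rises from 98.4 to 202, above Col6a1 at 177.

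Col18a1, the source of endostatin, was the most abundant of the 9 on both scales (means of 315 gene FPKM and 436 summed transcript FPKM). It was at 322, 341 and 318 gene FPKM in PBS, 338, 354, 403 and 317 in BAPN, 348, 376 and 373 in BAPN+Cilengitide, and 289.5, 56.4, 255 and 314 in BAPN+SB273005. All BAPN+SB273005 libraries lay below the libraries of each other group, with replicate 2 far below the rest and replicate 4 within 5 FPKM of the nearest PBS and BAPN libraries. Against PBS, Col18a1 differed by -0.48 ± 0.39 log2 with BAPN+SB273005 (edgeR adjusted p = 0.446). Without replicate 2, the library with little Acta2, it differed by -0.17 ± 0.13 (edgeR adjusted p = 0.428, with 0.248 to 0.650 over all alternatives). Differences from PBS were 0.11 ± 0.39 with BAPN and 0.20 ± 0.41 with BAPN+Cilengitide, with intervals of -0.72 to 0.95 and -0.69 to 1.10.

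Col15a1, the related basement membrane zone collagen, was at 106, 114 and 111 FPKM in PBS and at 119.8, 114, 134 and 131 in BAPN. It stood at 101, 129 and 126 FPKM in BAPN+Cilengitide and at 92.9, 36.7, 73.3 and 117 in BAPN+SB273005. BAPN libraries all lay above PBS, the nearest by less than 1 FPKM, and 3 of the 4 BAPN+SB273005 libraries lay below it. The log2 difference from PBS with BAPN+SB273005 was -0.42 ± 0.27 (edgeR adjusted p = 0.338), and -0.20 ± 0.17 without replicate 2 (edgeR adjusted p = 0.473, with 0.0951 to 0.555 over all alternatives). Col15a1 and Col18a1 moved together over the libraries on the log2(FPKM + 1) scale (Pearson r = 0.95 and Spearman rho = 0.67, 14 libraries, r = 0.82 without BAPN+SB273005 replicate 2). In summed transcript FPKM, Col18a1 was at 3.24 times Col15a1 on average, with the lowest ratio, 1.69, in BAPN+SB273005.

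In BAPN vs. PBS edgeR called 0 of the 9 genes, where it called 0.233% of all genes tested (31), 0.181% higher and 0.0527% lower. At an unadjusted p under 0.05, 3 of the 9 and 1591 of all genes passed, and DESeq2 called 0 of the 9 and 480 genes. The libraries of Col6a3, Col8a2, Col15a1 and Col16a1 lay wholly above PBS, 4 of 9, where 7.02% of all genes did, and 0 lay wholly below, where 7.56% did. The median log2 difference of the 9 was 0.28, beside 0.00 over all genes.

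BAPN+Cilengitide vs. PBS had 3 of the 9 genes higher, Col8a1, Col8a2 and Col16a1, and 0 lower, where 3.98% of all genes tested were higher and 1.6% lower (5.58% either way). The libraries did not overlap for 6 genes, all above PBS, where 13.5% of all genes lay wholly above and 18.4% wholly below. The count of 3 rested on the PBS and BAPN+Cilengitide libraries, falling to 0 without PBS replicate 2 or BAPN+Cilengitide replicate 1 and to 1 without PBS replicate 1, PBS replicate 3 or BAPN+Cilengitide replicate 2. With library set as a term it was 0, with log2 differences of 3.89 for Col8a1 (edgeR adjusted p = 0.263), 4.06 for Col8a2 (0.231) and 2.29 for Col16a1 (0.181). That term is estimated only inside BAPN+SB273005, from replicate 4 against replicates 1 to 3, and is taken as equal in all groups. It rests on 1 library, so these values do not separate set from group. Over all alternatives the adjusted p ran from 0.000972 to 0.263 for Col8a1, from 0.00209 to 0.231 for Col8a2 and from 1.13e-05 to 0.181 for Col16a1.

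BAPN+SB273005 vs. PBS shares the PBS libraries with the comparison above and had 4 of the 9 genes higher, where 7.82% of all genes tested were higher. Col12a1 joined the other 3, and 0 were lower, where 5.38% of all genes were (13.2% either way). Libraries lay wholly above PBS for these 4 genes, where 9.15% of all genes did, and wholly below for Col18a1, where 14% of all genes did. The count was 4 without BAPN+SB273005 replicate 2 and 1 (Col16a1) without PBS replicate 2. Inside 1 library set (BAPN+SB273005 replicates 1 to 3 against PBS alone), Col8a1 differed by 3.85 ± 0.56 log2 (edgeR adjusted p = 0.0278), Col8a2 by 3.94 ± 0.61 (0.0293), Col16a1 by 2.05 ± 0.31 (0.0292) and Col12a1 by 2.77 ± 0.65 (0.0711). Over all alternatives the adjusted p ran from 2.98e-05 to 0.0631 for Col8a1, from 1.43e-05 to 0.0512 for Col8a2 and from 4.41e-07 to 0.0312 for Col16a1.

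**Figure D4:**
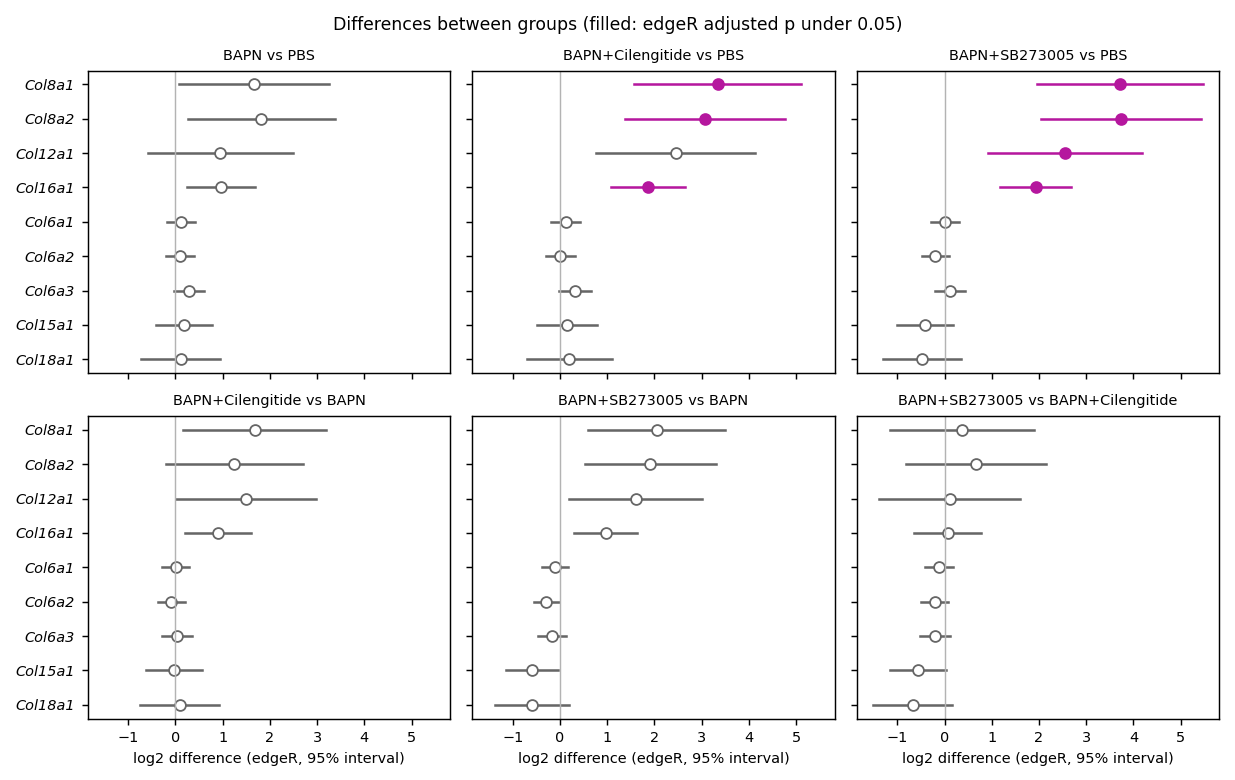
Log2 differences between groups from the edgeR fit (x axis) with approximate 95% intervals for the 9 collagens (y axis) in 6 comparisons. Filled points passed an adjusted p under 0.05, 3 in BAPN+Cilengitide vs. PBS and 4 in BAPN+SB273005 vs. PBS. In SB273005 vs. Cilengitide the intervals of all 9 genes include 0.

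With the 3 BAPN-fed groups averaged, 3 of the 9 genes were higher than PBS and 0 lower, where 5.58% of all genes tested were higher and 3.63% lower (9.21% either way). Col8a1 differed by 2.91 ± 0.73 log2 (edgeR adjusted p = 0.028), Col8a2 by 2.87 ± 0.71 (0.0259), Col16a1 by 1.59 ± 0.31 (0.0104) and Col12a1 by 1.99 ± 0.68 (0.0866). All 11 fed libraries lay above PBS for Col8a2 and Col16a1, where 3.51% of all genes did, and below for 0, where 4.11% did. This contrast includes the libraries of the comparisons above, and its count fell to 0 without PBS replicate 2 and to 1 without PBS replicate 1 or 3. With library set as a term it was also 0, with log2 differences of 3.31 for Col8a1 (edgeR adjusted p = 0.152), 3.60 for Col8a2 (0.121) and 1.90 for Col16a1 (0.0906). Here too the set term rests on BAPN+SB273005 replicate 4 against replicates 1 to 3.

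Adding an inhibitor to BAPN gave higher means of Col8a1, Col8a2, Col12a1 and Col16a1 than BAPN, with no difference past the threshold. In BAPN+Cilengitide vs. BAPN edgeR called 0 of the 9 genes and 0% of all genes tested. At an unadjusted p under 0.05, 3 of the 9 and 807 of all genes passed, and DESeq2 called 0 of the 9 and 21 genes. The log2 difference was 1.67 ± 0.70 for Col8a1 (interval 0.16 to 3.18) and 0.90 ± 0.33 for Col16a1 (0.19 to 1.60), each with an edgeR adjusted p of 0.795. Libraries lay wholly apart for 0 of the 9, where 2.68% of all genes lay wholly above and 7.82% wholly below. All libraries of this comparison belong to 1 library set.

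In BAPN+SB273005 vs. BAPN, which shares the BAPN libraries, edgeR called 0 of the 9 and 0.0301% of all genes (4), 0.00752% higher and 0.0226% lower. At an unadjusted p under 0.05, 6 of the 9 and 2146 of all genes passed, and DESeq2 called 0 of the 9 and 395 genes. The log2 differences were 2.05 ± 0.67 for Col8a1, 1.91 ± 0.64 for Col8a2, 1.61 ± 0.65 for Col12a1 and 0.97 ± 0.31 for Col16a1, with edgeR adjusted p of 0.205, 0.21, 0.263 and 0.199. The other 2 of the 6 were lower with BAPN+SB273005, Col6a2 at -0.29 ± 0.12 (interval -0.56 to -0.03, edgeR adjusted p = 0.272) and Col15a1 at -0.59 ± 0.25 (-1.14 to -0.04, edgeR adjusted p = 0.278). Without BAPN replicate 1, the BAPN library with high Col8a1, edgeR called Col8a1 (3.27 ± 0.53, adjusted p = 0.0348) and Col8a2 (3.04 ± 0.52, adjusted p = 0.0391). No other alternative called either, and this was the lowest adjusted p of each. Col18a1 lay wholly below BAPN in this comparison, where 6.3% of all genes did (1.56% lay wholly above), at -0.59 ± 0.36 (edgeR adjusted p = 0.425). The group here mixes both library sets.

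Cilengitide and SB273005 were compared directly, both with BAPN, at doses that are not given. edgeR called 0 of the 9 genes and 0% of all genes tested, at an unadjusted p under 0.05 0 of the 9 and 1224 of all genes passed, and DESeq2 called 0 of the 9 and 39 genes. The interval of the difference, BAPN+SB273005 less BAPN+Cilengitide, was -1.15 to 1.90 log2 for Col8a1, -0.81 to 2.14 for Col8a2, -1.38 to 1.59 for Col12a1 and -0.64 to 0.78 for Col16a1. For Col18a1 the difference was -0.68 ± 0.39 (-1.51 to 0.15), and its BAPN+SB273005 libraries lay wholly below, where 3.87% of all genes did (2.66% lay wholly above). These intervals leave room for differences of more than 1 log2 unit for Col8a1, Col8a2, Col12a1 and Col18a1.

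Summed markers of other cell types also differed between groups, not all in the pattern of these levels, and their part in the results was not tested. In bulk tissue fewer cells of a type and less RNA per cell cannot be told apart. Summed FPKM of 10 macrophage markers was 93.9 to 122 in PBS and 196 to 577 in the BAPN-fed libraries, highest in replicate 1 of each fed group, as for Col8a1, and 9 of the 10 were higher in each inhibitor group than in PBS. The sum of 5 chondrocyte markers, which include Comp and Col2a1 of the lists given further on, was 21.0 to 22.9 in PBS, 39.6 to 60.8 in BAPN, 96.2 to 349 in BAPN+Cilengitide and 57.9 to 311 in BAPN+SB273005, again highest in replicate 1, with 1 of the 4 tested higher in each inhibitor group. The 8 fibroblast markers summed to 549 to 735 in PBS and 767 to 1154 in the fed libraries, with 1 of 8 higher in each inhibitor group. The lowest fed sum, 767, was in BAPN+Cilengitide replicate 1, the library with the highest Col8a1 of its group. The 9 smooth muscle markers summed to 8964 to 10733 in PBS, 6987 to 10632 in BAPN, 6087 to 8069 in BAPN+Cilengitide and 1188 to 7030 in BAPN+SB273005, where 4 of 9 were lower than in PBS, beside the lower Col18a1 and Col15a1 values of that group. The 8 endothelial markers summed to 72.3 to 86.0 in PBS and 48.0 to 129 in the fed libraries, a range that includes that of PBS, with 1 of 8 higher with BAPN+SB273005. Over all genes tested, 3.98% were higher with BAPN+Cilengitide than in PBS. With BAPN+SB273005, 7.82% were higher and 5.38% lower. These lists are too short for a single call to be weighed against these shares. Adipocyte, cardiomyocyte, Schwann cell and mesothelial lists had no call in either inhibitor group against PBS. The 4 kidney tubule markers, which include Umod, summed to 243 to 294 FPKM in PBS and 194 to 349 in the fed libraries. Of these 4 markers, 2 were higher than PBS with BAPN, 2 with BAPN+Cilengitide and 1 with BAPN+SB273005. No marker of these lists was at 0 in a whole group.

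Annotated transcripts were then compared. Col6a1, Col6a3, Col8a1, Col8a2 and Col18a1 each had over 98% of their mean summed transcript FPKM in 1 transcript. For Col18a1 this was the transcript from the distal start, with 94.4% to 99.8% of the sum in each library. Col6a2 had 84.6% in ENSMUST00000001181 and 14.3% in ENSMUST00000105413. The share of the first was 86.8% to 87.2% in PBS and 82.2% to 86.1% in the fed libraries, without overlap. How many of all genes have transcript shares that separate this way was not counted, so this is a description only. The test of transcript usage, fed groups against PBS, gave an adjusted p of 0.405 for Col6a2 (diffSpliceDGE in edgeR).

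Other genes had more variable shares. Col15a1 had 89.8% in ENSMUST00000102917, with 71.2% to 82.3% in PBS and 77.2% to 99.9% in BAPN. Col12a1 had 83.7% in its long transcript of 11511 bases and 15.2% in one of 1784 bases at the 3′ end of the gene. For Col16a1 the leading transcript, ENSMUST00000143432 with 46.9%, is annotated as a target of nonsense-mediated decay, and ENSMUST00000143577, which codes for protein, had 38.2%. The share of the first ran from 16.7% to 77.9% between libraries. Of the 5 genes tested for usage, 0 passed (adjusted p of 0.405 for Col6a2, 0.575 for Col16a1, 0.955 for Col15a1, and 0.999 for Col12a1 and Col18a1), where 1.09% of the 5666 genes tested did. At an unadjusted p under 0.05 Col6a2 alone passed. This test made more false calls on simulated data than its threshold states.

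**Figure D5:**
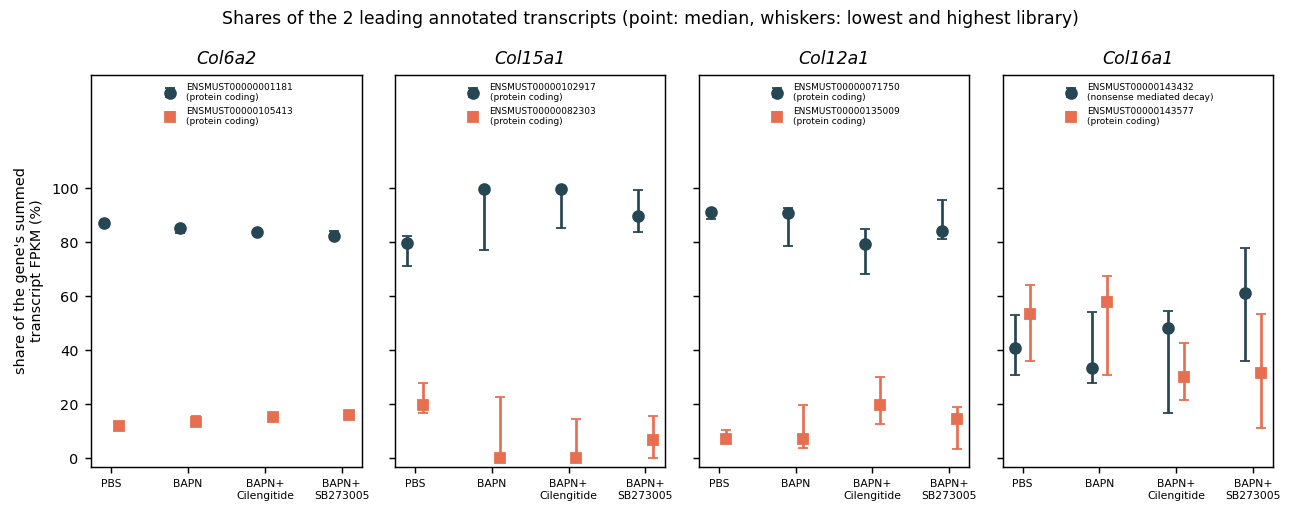
Share of each gene's summed transcript FPKM (y axis, %) held by its 2 leading annotated transcripts in the 4 groups, as median (point) with the lowest and highest library (whiskers). The leading Col6a2 transcript lies at 86.8% to 87.2% in PBS, above all fed libraries, while the Col16a1 transcripts overlap between groups. How many of all genes separate as Col6a2 does was not counted.

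Col18a1 overlaps Slc19a1, a folate transporter gene on the other strand, at its 3′ end, and whether the counting used strand is not stated, so reads there cannot be told apart. Slc19a1 was at 1.95 ± 0.114 (SD, n = 3) FPKM in PBS and 2.29 ± 0.168 (n = 4) in BAPN+SB273005, beside Col18a1 means of 327 and 229. The other chromosome 10 neighbours, Pcbp3 and Pofut2, differed by -0.32 ± 0.13 and -0.28 ± 0.14 log2 between the fed groups and PBS (edgeR adjusted p = 0.135 and 0.231).

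The genes outside the 9 whose log2(FPKM + 1) was most like that of each member over the 14 libraries are given with Pearson's r, as a description. For Col8a1, Col8a2, Col12a1 and Col16a1 these libraries fall into 8 higher and 6 lower ones. For Col8a1 they were Itga11, a collagen receptor subunit (r = 0.99), Sdc3 (0.98) and C1qtnf5 (0.97). For Col8a2 they were Ccn4 (0.99), P4ha3, a collagen prolyl hydroxylase subunit (0.98), and Ddah1 (0.98). Col16a1 was followed most closely by Man1c1 (0.99), Farp1 (0.98) and Mmp2, a matrix metalloproteinase (0.98), and Col12a1 by Hs6st2 (0.97), Kif26b (0.97) and Cdk14 (0.96). P4ha3, Hs6st2, Kif26b and Cdk14 were under 1 FPKM in every PBS library, so they passed the FPKM filter only through BAPN-fed libraries. Col18a1 was closest to Susd5 (r above 0.99), Ltbp1 (0.98) and Efhd1 (0.98), and Col15a1 to Efhd1 (0.97), Tspan2 (0.96) and Ramp1 (0.96), over libraries that include the low BAPN+SB273005 replicate 2. The collagen VI genes had looser neighbours: Kdelr3 for Col6a1 (0.83), Uxt for Col6a2 (0.90) and B3galnt1 for Col6a3 (0.86).

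Other collagens and collagen partners were read from lists chosen for this tissue with earlier results of these data known. Their counts beside shares of all genes are likewise descriptions. Of the 24 other nonfibrillar chains, 11 were tested, and with the fed groups averaged 1 was higher than PBS and 0 lower, where 5.58% of all genes tested were higher and 3.63% lower (median log2 difference 0.13, beside 0.00 over all genes), so the count of 1 of 11 is near that share. The counts of this and the other 3 lists are of the averaged contrast, which called 1224 genes, and 54 with library set as a term. The 1 was Col14a1, a fibril-associated relative of Col12a1, at 43.0 ± 8.26 (SD, n = 3) FPKM in PBS and 74.7 ± 10.2 (n = 3) in BAPN+Cilengitide (0.75 ± 0.20 for all fed, edgeR adjusted p = 0.0328). Col10a1, the hypertrophic cartilage collagen, was at 0.582 ± 0.058 FPKM in PBS and 47.5 ± 72.9 (n = 3) in BAPN+Cilengitide, and did not pass in that comparison (edgeR adjusted p = 0.0589) or with the fed groups averaged (edgeR adjusted p = 0.0859). Its highest PBS library was at 0.62 FPKM, so Col10a1 passed the FPKM filter only through BAPN-fed libraries.

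Among 9 fibrillar chains tested of 11 listed, 4 were higher and 0 lower with the fed groups averaged, beside the same 5.58% and 3.63% of all genes (median 0.99), including Col1a1 (1.28 ± 0.34, edgeR adjusted p = 0.0337), Col5a2 (0.99 ± 0.23, 0.0216) and Col5a3 (1.60 ± 0.43, 0.036). Of 19 receptors and matrix partners tested of 20, 5 were higher and 0 lower (median 0.20), beside the same shares of all genes. They included Fmod, fibromodulin (2.25 ± 0.35, edgeR adjusted p = 0.00393), Comp, a pentameric glycoprotein that binds collagens (2.94 ± 0.54, 0.00723), and Nid1, nidogen, a basement membrane linker (1.02 ± 0.22, 0.0162). Of 15 folding and processing genes tested of 16, 2 were higher and 0 lower (median 0.31), again beside 5.58% and 3.63% of all genes. They were Pcolce, the procollagen C-proteinase enhancer (1.13 ± 0.19, edgeR adjusted p = 0.00599), and P4ha3 (3.64 ± 0.95, 0.0327). P4ha3 was at 0.150 to 0.236 FPKM in PBS. It passed the FPKM filter only through BAPN-fed libraries, where it was high, so its place in this count was favoured by the filter. Col5a3, at 0.897 FPKM in its lowest PBS library, also needed BAPN-fed libraries to pass the filter. None of the genes in these 4 lists passed in BAPN vs. PBS or in the comparisons among the fed groups.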

How the data were processed

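RNA was extracted with Trizol, per the labels' protocols. HISAT2 2.2.1 and StringTie 2.1.6 on mm10 are named in the submitters' processing notes, while the sources used here do not name the annotation release, read filters or strand setting. The deposited gene and transcript tables hold, per library, the authors' FPKM and an estimated count. The deposited gene FPKM divide by the union of exons (98.4% of 7946 genes within 1%), and transcript FPKM by transcript length. Estimated counts are not reads assigned whole, so edgeR's counting error is an approximation.

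Genes with FPKM of at least 1 in at least 3 libraries were tested with edgeR 4.0.16 in R 4.3.3 (TMM, quasi-likelihood, 1 fit over 14 libraries, Benjamini-Hochberg over 13294 genes, threshold 0.05). Each SE is the log2 difference divided by the square root of F, and intervals are approximate. Alternatives used DESeq2 1.42.0, limma 3.58.1 on log2 values with a pseudocount of 1 or 0.1, other filters, scalings and left-out libraries. The fits were tested on simulated data. All 18 pairs of libraries within groups differed by more than sampling noise. Named genes were the 9 members, up to 3 genes of each of 4 lists by smallest p, the 3 genes most like each member, transcripts with at least 10% of a gene, and chromosome 10 neighbours. Members and lists were chosen with earlier results of these data known. GENCODE vM21 gave the same start and end for 8 of the 9 genes. Promoter sequences are RefSeq's on GRCm38.p6, with windows for 8 of the 9 genes.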

Additional observations from a re-analysis of the deposited data

Results flagged for a closer look

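Over 18 combinations of a collagen and a group with 4 libraries, 4 had a library far from its group by Dixon's criterion. Its nominal rate is about 1 in 20 for independent combinations. These are not independent, since most of the 4 fall in BAPN replicate 1, in genes whose levels move together. In BAPN replicate 1, Col8a1 was at 34.2 FPKM, a gap to the next library of 0.895 of the group's range. Col8a2 was at 8.94 FPKM in the same library (0.934 of the range), and Col12a1 at 4.91 FPKM (0.899). In BAPN+SB273005 replicate 1, Col12a1 was at 16.9 FPKM (0.909 of the range). Groups of 3 libraries were not examined this way.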

How the results depend on the processing

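The alternatives left every called difference of a member in its direction. Of 1694 values of single members under alternatives, 1553 kept their side of the threshold and direction, 47 lost a call, 7 gained one, and 87 changed the sign of a difference that had passed in neither setting. The number of members called in BAPN+Cilengitide vs. PBS, 3, was 1 with no FPKM filter, 0 with library set as a term and 0 to 4 when single libraries were left out. In BAPN+SB273005 vs. PBS, 4, it was 1 to 4 with single libraries left out and 3 or 4 otherwise. BAPN+SB273005 vs. BAPN, 0, gave 0 to 2 with single libraries left out. The averaged fed groups vs. PBS, 3, gave 0 with library set as a term and 0 to 3 with single libraries left out. The other 3 comparisons gave 0 throughout. Col16a1 passed in BAPN+SB273005 vs. PBS in all 29 settings, Col8a1 and Col8a2 in 28, and Col12a1 in 14 of 28. Replicate numbers were shared between groups, and no label says what they mark. Same-number libraries had correlations of deviations of -0.16 to 0.34 over 19 pairs (median 0.15, 12 over 0.1), beside a median of -0.04 over 54 other pairs (4 over 0.1), and 9 of 14 libraries were closest to their own number. Since not every same-number pair was over 0.1, the numbers were not used as a pairing, though the data hint at a partial one. With the replicate block 0, 4, 4, 0, 0, 0 and 4 members passed in the order of the 7 comparisons (141, 962, 1866, 0, 20, 0 and 1282 of all genes), with Col12a1 added in BAPN+Cilengitide vs. PBS, and the usage test called 1 gene, Col15a1, in place of 0 (0 with any single library left out). Over all genes, calls ran from 2 (without PBS replicate 2) to 480 (DESeq2) in BAPN vs. PBS, against 31; from 5 (library set) to 1465 (DESeq2) in BAPN+Cilengitide vs. PBS, against 742; from 498 (without PBS replicate 2) to 2607 (DESeq2) in BAPN+SB273005 vs. PBS, against 1754; and from 54 (library set) to 2001 (DESeq2) for the averaged groups, against 1224. They ran from 0 to 395 in BAPN+SB273005 vs. BAPN (reported: 4), 0 to 21 in BAPN+Cilengitide vs. BAPN and 0 to 39 between the inhibitors (reported: 0 in both). Scaling to TPM put the median log2 difference of all genes at 0.13 in BAPN+Cilengitide vs. PBS, at -0.15 in BAPN+SB273005 vs. BAPN and at -0.23 in BAPN+SB273005 vs. BAPN+Cilengitide, and moved the calls in BAPN+Cilengitide vs. PBS from 529 higher and 213 lower to 483 and 68. For the averaged groups they went from 742 and 482 to 491 and 131. In BAPN+SB273005 vs. PBS limma on log2(FPKM + 1) called 709 higher and 916 lower, beside 1039 and 715. The limma fit on the log2 sum of transcript FPKM was added after the data were seen. A fit of only the groups compared does not apply to the averaged groups. The cause of these changes was not tested. With 3 or 4 libraries a group, and counts of Col8a2 as low as 167, small differences of the low genes are not detectable.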
